A study of Mus musculus with 9 samples.

Results

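The Toll-like receptor (TLR) genes described here are *Tlr1*, *Tlr2*, *Tlr3*, *Tlr4*, *Tlr5*, *Tlr6*, *Tlr7*, *Tlr8*, *Tlr9* and *Tlr13*, 10 of the 55322 genes in the deposited table, chosen by their symbols. Their levels are given in FPKM, read counts scaled to the length of a gene's exons and to the depth of its library, so levels of different genes can be compared. RNA was sequenced from 9 libraries of wild type mice, 3 in each of 3 groups. CD11b+ and CD11b- B cells were sorted from the bone marrow (BM) 48 h after an injection of LPS (5 mg/kg), the component of the bacterial outer membrane that TLR4 detects. Peritoneal macrophages (PMs) came from untreated, naive mice. Before sorting, the authors depleted BM cells with markers of T cells, NK cells, granulocytes and erythroid cells. There was no library of B cells without LPS, so the comparisons below do not measure the response to LPS, and in B cells against PMs the cell type, the tissue and the treatment cannot be told apart.

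TLRs are membrane receptors that bind molecules of microbes and signal through adaptors with a TIR domain to NF-kB and interferon regulatory factors. TLR1, TLR2, TLR4, TLR5 and TLR6 act at the cell surface on lipids and proteins of the microbial wall and flagellum, while TLR3, TLR7, TLR8, TLR9 and TLR13 act in endosomes, where they meet microbial RNA or DNA. B cells and macrophages both use TLRs, and B cells can answer TLR ligands by dividing, by secreting antibody and by producing cytokines.

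The libraries held between 18014658 and 35251215 reads on genes, which sets the precision of the low genes. The B cell markers were present in both B cell groups, where *Cd79a*, a subunit of the B cell receptor complex, had between 1848 and 2580 FPKM, and the macrophage markers in PMs, where *Adgre1* had between 232 and 345 FPKM. The 10 genes of the B cell list summed to 118 FPKM in PM replicate 1 and to 61.4 and 64.7 FPKM in the other PMs. PM replicate 1 was the highest PM library for 7 of the 10, and not for *Ms4a1*, *Ebf1* and *Cr2*. Genes of B cell precursors summed to 175 FPKM in CD11b- replicate 3 and to 42.3 FPKM in CD11b+ replicate 3, and to at most 3.49 FPKM in the other 7 libraries. Neutrophil genes summed to between 218 and 1591 FPKM in the CD11b+ libraries, to at most 3.18 FPKM in the CD11b- libraries, and to between 64.8 and 97.2 FPKM in PMs. Most of the sum in PMs was *Csf3r* (50.1 to 75.9 FPKM), followed by *Mmp9* (9.10 to 9.56 FPKM). Since these are bulk libraries, fewer cells of a type and less RNA per cell cannot be told apart, and since the labels do not say whether the libraries of a group came from separate mice, p-values measure only the spread between these libraries.

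The genes lie on 7 chromosomes (positions of GENCODE M21 on GRCm38). *Tlr1* (ENSMUSG00000044827, chr5:64924679-64933563) and *Tlr6* (ENSMUSG00000051498, chr5:64952031-64960097) stand 18467 bases apart on the minus strand, and *Tlr8* (ENSMUSG00000040522, chrX:167242696-167264329) and *Tlr7* (ENSMUSG00000044583, chrX:167304929-167330558) stand 40599 bases apart, also on the minus strand. The other members are *Tlr2* (ENSMUSG00000027995, chr3:83836272-83841767), *Tlr3* (ENSMUSG00000031639, chr8:45395665-45411080), *Tlr4* (ENSMUSG00000039005, chr4:66827584-66930284), *Tlr5* (ENSMUSG00000079164, chr1:182954788-182976044), *Tlr9* (ENSMUSG00000045322, chr9:106222598-106226883) and *Tlr13* (ENSMUSG00000033777, chrX:106143204-106160493), and all 10 are annotated as protein coding. *Tlr3* shares 381 bases of exon with *Gm45542*, a long noncoding RNA on the opposite strand, and since the SMART-seq kit used does not mark the strand, reads from these 2 genes cannot be told apart there.

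*Tlr1* and *Tlr6* are close paralogs, and a read from a stretch they share could be counted for either. Their longest identical run in the coding sequence had 229 bases, which are bases 1468 to 1696 of the *Tlr1* coding sequence (chr5:64925537-64925765, minus strand, GRCm38) and bases 1507 to 1735 of that of *Tlr6* (chr5:64953828-64954056, minus strand). It is shown because it marks where the counts of both genes could mix.
Tlr1 and Tlr6 shared run: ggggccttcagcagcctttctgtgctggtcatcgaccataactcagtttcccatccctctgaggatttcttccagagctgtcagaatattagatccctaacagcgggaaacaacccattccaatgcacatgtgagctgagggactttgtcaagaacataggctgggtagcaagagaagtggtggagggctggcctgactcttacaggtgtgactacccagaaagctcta
Of all windows of 150 bases in the longest transcript, 4.83% in *Tlr1* and 3.94% in *Tlr6* were found in the other gene, and none of the windows of the other 8 members was found in any other gene. The next longest run shared by the coding sequences of 2 members had 16 bases.

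The bases before the start of transcription are shown for 2 members that were higher in B cells, *Tlr1* and *Tlr9*, and for 2 that were higher in PMs, *Tlr8* and *Tlr13* (values below). They are from RefSeq on GRCm38.p6, up to 250 bases before the RefSeq start, less any base that GENCODE M21 places inside the gene (5 bases for *Tlr1* and 71 for *Tlr13*). Capitals mark a motif: GAGGAA, the core bound by ETS family factors such as PU.1, on either strand (TTCCTC in *Tlr8*), and in *Tlr9* also the octamer ATGCAAAT, bound by Oct factors such as OCT2 of B cells.
Tlr1, chr5:64933564-64933808, minus strand: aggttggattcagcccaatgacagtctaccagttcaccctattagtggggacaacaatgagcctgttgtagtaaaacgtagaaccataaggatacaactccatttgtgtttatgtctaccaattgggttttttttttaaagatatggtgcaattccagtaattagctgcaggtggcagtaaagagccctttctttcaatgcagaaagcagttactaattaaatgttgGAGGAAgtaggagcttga
Tlr9, chr9:106222348-106222597, plus strand: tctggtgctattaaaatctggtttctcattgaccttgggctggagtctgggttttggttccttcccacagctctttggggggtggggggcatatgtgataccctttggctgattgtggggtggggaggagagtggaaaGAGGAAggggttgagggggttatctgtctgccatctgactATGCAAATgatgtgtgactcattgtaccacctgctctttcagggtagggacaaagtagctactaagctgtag
Tlr8, chrX:167264330-167264579, minus strand: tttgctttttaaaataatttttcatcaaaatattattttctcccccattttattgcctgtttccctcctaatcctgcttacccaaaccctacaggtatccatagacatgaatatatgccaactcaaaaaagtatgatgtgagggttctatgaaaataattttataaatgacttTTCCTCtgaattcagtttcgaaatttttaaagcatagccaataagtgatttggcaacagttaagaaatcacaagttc
Tlr13, chrX:106143025-106143203, plus strand: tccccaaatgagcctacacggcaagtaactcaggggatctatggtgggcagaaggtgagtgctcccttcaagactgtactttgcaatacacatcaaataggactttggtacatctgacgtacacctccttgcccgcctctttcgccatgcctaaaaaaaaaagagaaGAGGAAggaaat
The motif GAGGAA began at position -23 in *Tlr1*, -112 in *Tlr9*, -77 in *Tlr8* and -83 in *Tlr13*, counted from the RefSeq start, with -1 as the base before it. RefSeq windows were given for 8 of the 10 members, and the 10 windows of these members were searched on both strands beside all 32851 windows of 250 bases. GAGGAA is in 23.3% of all windows and was in 1 window each of 4 members, those shown. The windows of *Tlr2* and *Tlr3*, also higher in PMs, and a further window of *Tlr1* held no GAGGAA and are not shown. The octamer is in 1.6% of all windows and was found only in *Tlr9* among the members, at -72. The letters GGG, any 2 bases and TTTCC, a form of the NF-kB element (1.41% of all windows), was found only in *Tlr3*, and GAAA, any 2 bases and GAAA, a form of the interferon response element (2.98%), only in *Tlr6*, where 2 matches overlap. A form of the EBF element, TCCC, any 2 bases and GGGA (0.779%), was in none. These matches describe the letters of the windows and are not evidence of binding.

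The receptor set differed between B cells and PMs, and much less between the B cell groups. At a mean of at least 1 FPKM, 6 members were present in CD11b+ B cells and the same number in CD11b- B cells, and 8 in PMs. *Tlr1*, *Tlr2*, *Tlr4*, *Tlr6* and *Tlr7* were above this level in all 3 groups, *Tlr9* only in B cells, and *Tlr3*, *Tlr8* and *Tlr13* only in PMs. The FPKM of the 10 genes summed to similar totals, 77.8 to 116 in PMs and 76.1 to 112 over the 6 B cell libraries, but were made up differently. *Tlr1* gave between 67.4 and 77.1% of the sum in the 6 B cell libraries and between 2.59 and 12.9% in PMs. *Tlr13* gave 36.5 to 42.9% in PMs and at most 0.760% in any B cell library. The endosomal receptors together gave 57.6 to 61.3% of the sum in PMs, 8.08 to 10.6% for CD11b- B cells, and 10.9 to 14.3% for CD11b+ B cells, so the CD11b+ shares stood just above the CD11b- shares and far below those of PMs.

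**Figure D1:**
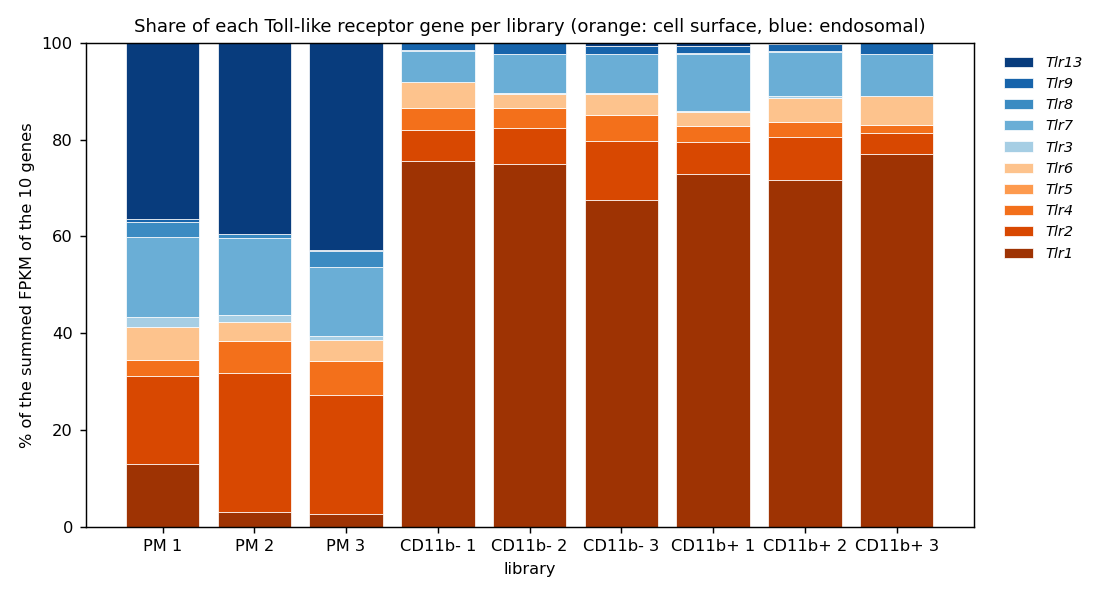
Share of each TLR gene (%, y axis) in the summed FPKM of the 10 genes, 1 bar for each of the 9 libraries, with cell-surface receptors in orange and endosomal receptors in blue. *Tlr1* filled at least 67.4% of each B cell bar, and *Tlr13* at least 36.5% of each PM bar.

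Differences were tested with limma on log2(FPKM + 1), with Benjamini-Hochberg adjustment over all genes tested in a comparison and a threshold of 0.05. Fold changes below are differences on this scale unless edgeR or DESeq2 is named, which give log2 fold changes of the whole reads. On the log2(FPKM + 1) scale the change of a low gene comes out smaller than the ratio of its FPKM. *Tlr5* was below the filter (a mean of at least 0.05 FPKM) in every comparison, so 9 of the 10 members were tested. *Tlr8* passed the filter in CD11b- B cells against PMs through the PMs alone, and between the B cell groups through the CD11b+ libraries alone.

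Between CD11b+ and CD11b- B cells, 0 of the 9 members tested passed the threshold, with adjusted p-values from 0.676 to 0.975 by limma, against 0.0689% of all genes (15 of 21778, all higher in CD11b+ B cells). An unadjusted p under 0.05 was found for 0 of the 9, beside 7.68% of all genes, and on the whole reads behind the FPKM edgeR and DESeq2 also called 0 members, against 0.269% and 2.26% of all genes. The member with the smallest p was *Tlr7*, and it was the only one whose libraries did not overlap between the groups, beside 14.9% of all genes tested. The intervals allow for changes of modest size: the 95% interval reached from -1.14 to 0.18 for *Tlr4*, from -0.05 to 1.03 for *Tlr7* and from -0.88 to 0.51 for *Tlr2*. The median difference was 0.13 over the 9 members and 0.03 over all genes.

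Against PMs, most members differed in both B cell groups. In CD11b+ B cells, 2 members were higher (*Tlr1* and *Tlr9*, beside 21.5% of all 22102 genes) and 4 were lower (*Tlr2*, *Tlr3*, *Tlr8* and *Tlr13*, beside 8.78%). In CD11b- B cells the same 2 members were higher, beside 25.8% of all 20985 genes, and 5 were lower, the 4 named and *Tlr7*, beside 11% of all genes. Of these 5, *Tlr8* was tested through the PMs alone. The libraries of 7 members did not overlap in CD11b+ B cells against PMs, beside 46.7% of all genes, and likewise 7 in CD11b- B cells against PMs, beside 51.4%. These comparisons share the PM libraries, so their calls are not independent of each other.

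The median over all genes was itself above 0 on the FPKM scale, by 0.25 in CD11b+ B cells and by 0.24 in CD11b- B cells, so a member with a difference near these values stood at the level of the average gene. After FPKM were rescaled by median-ratio size factors, these medians were 0.12 and 0.08. The split of calls moved with it. In CD11b+ B cells against PMs, limma called 4760 genes higher and 1940 lower on FPKM as deposited, and 2777 higher and 2659 lower after rescaling. In CD11b- B cells against PMs it called 5404 higher and 2306 lower, and 3335 higher and 3155 lower after rescaling. For members the rescaling kept each direction and added *Tlr4* (-1.30, adjusted p = 0.0326) and *Tlr7* (-1.17, adjusted p = 0.0111) to those lower in CD11b+ B cells, beside 12% of all genes. Both were also called lower by edgeR and DESeq2, which called 18.1% and 18.8% of all genes lower.

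**Figure D2:**
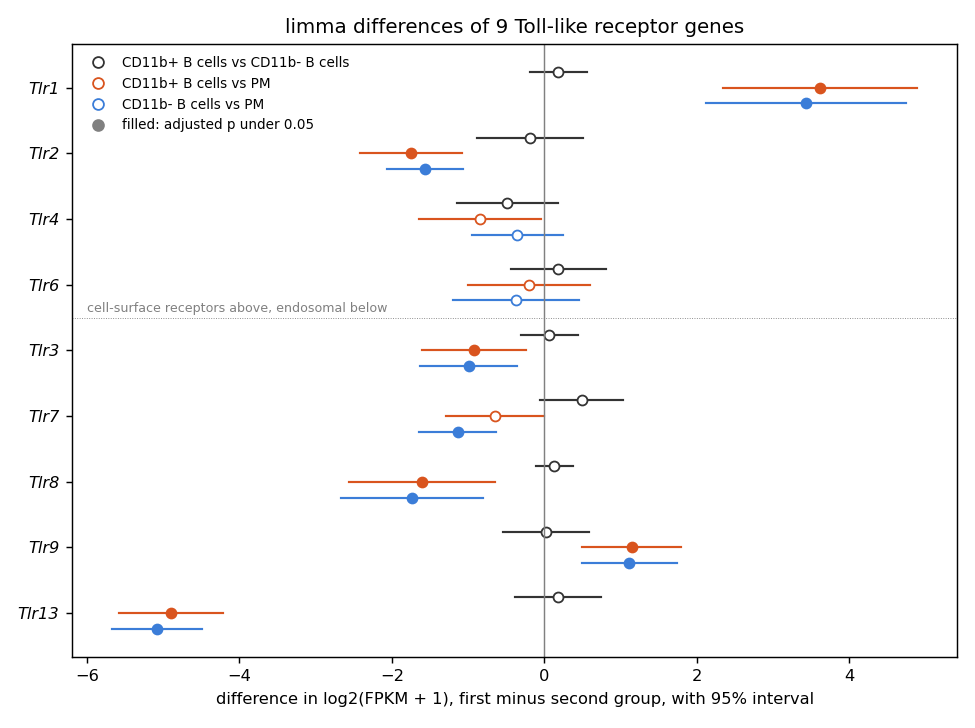
Differences in log2(FPKM + 1) by limma (x axis, points) with 95% intervals (lines) for 9 TLR genes (y axis) in CD11b+ against CD11b- B cells (black), CD11b+ B cells against PMs (orange) and CD11b- B cells against PMs (blue), with filled points for an adjusted p under 0.05. All black points are open, and *Tlr1* and *Tlr13* lie farthest from 0 on opposite sides in both comparisons with PMs.

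Among the cell-surface receptors, *Tlr1*, which pairs with TLR2 to detect triacylated lipopeptides, was the highest TLR gene of the B cells. It had 81.8, 64.8 and 65.6 FPKM in CD11b+ B cells (70.8 ± 9.60, SD, n = 3), 68.1, 67.2 and 51.3 FPKM in CD11b- B cells (62.2 ± 9.46) and 15.0, 2.31 and 2.68 FPKM in PMs (6.66 ± 7.21). Every B cell library lay above every PM library, and among the PMs replicate 1 stood apart. The difference was 3.62 (standard error 0.55, adjusted p = 0.00198 by limma) in CD11b+ B cells against PMs and 3.43 (0.56, adjusted p = 0.00271) in CD11b- B cells against PMs. The ratios of mean FPKM were 10.6 and 9.34. Without PM replicate 1 the difference was larger, at 4.35 and 4.17. In that library the 10 B cell genes were between 0.413 and 9.10% of their means in the B cell libraries, with a median of 1.59%, and *Tlr1* was 22.5% of its own mean there. The part of B cells or their RNA in the *Tlr1* of that library was not tested. Between the B cell groups *Tlr1* differed by 0.19 (standard error 0.16, adjusted p = 0.727), and their libraries overlapped.

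*Tlr2*, the partner of both TLR1 and TLR6, showed the opposite order. It had 21.1, 22.4 and 25.6 FPKM in PMs (23.0 ± 2.30), 5.75, 6.61 and 9.37 FPKM in CD11b- B cells (7.24 ± 1.89) and 7.61, 8.02 and 3.63 FPKM in CD11b+ B cells (6.42 ± 2.43). All PM libraries lay above all B cell libraries, with replicate 3 as the highest of the CD11b- and the lowest of the CD11b+ libraries. *Tlr2* was lower than in PMs by a difference of -1.75 (standard error 0.29, adjusted p = 0.0029 by limma) in CD11b+ B cells and of -1.56 (0.21, adjusted p = 0.00115) in CD11b- B cells. The B cell groups overlapped, with a difference of -0.19 (0.30, adjusted p = 0.832) that became 0.12 without CD11b+ replicate 3.

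*Tlr6*, which pairs with TLR2 to detect diacylated lipopeptides, varied as much within the groups as between them. It had 7.92, 3.10 and 4.48 FPKM in PMs (5.17 ± 2.49), 4.93, 2.59 and 3.30 FPKM in CD11b- B cells (3.61 ± 1.2) and 3.12, 4.32 and 5.11 FPKM in CD11b+ B cells (4.18 ± 1.0). The 3 groups overlapped, and limma, edgeR and DESeq2 called *Tlr6* in none of the 3 comparisons. Its difference from PMs was -0.19 (0.35, adjusted p = 0.67 by limma) in CD11b+ B cells, with a 95% interval from -0.99 to 0.60, and was 0.11 without PM replicate 1.

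The levels of TLR2 and its partners per exon length thus stood in different proportions. In PMs, *Tlr2* was 1.41, 9.70 and 9.54 times as high as *Tlr1* in the 3 libraries, and in B cells it was between 0.0554 and 0.183 times as high. *Tlr1* was 0.598 to 1.89 times as high as *Tlr6* in PMs and 12.8 to 26.3 times as high in the 6 B cell libraries. Neither proportion separated CD11b+ from CD11b- B cells: *Tlr2* to *Tlr1* was 0.0930, 0.124 and 0.0554 in CD11b+ B cells and 0.0843, 0.0984 and 0.183 in CD11b- B cells. *Tlr2* to *Tlr6* was between 0.711 and 2.84 in B cells and between 2.66 and 7.25 in PMs, so for this pair the ranges met.

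*Tlr4*, the receptor for LPS, had 3.76, 2.84 and 1.43 FPKM in CD11b+ B cells (2.68 ± 1.17), 4.12, 3.70 and 4.04 FPKM in CD11b- B cells (3.95 ± 0.221) and 4.02, 5.12 and 7.29 FPKM in PMs (5.47 ± 1.66). The CD11b- libraries lay close together, and the CD11b+ libraries spread downwards from the same level to CD11b+ replicate 3, the lowest of all 9. The difference was -0.48 (standard error 0.29, adjusted p = 0.709 by limma) between the B cell groups and shrank to -0.21 without CD11b+ replicate 3. Against PMs it was -0.84 (0.35, adjusted p = 0.108) in CD11b+ B cells, whose libraries were all below the PMs, and -0.36 (0.26, adjusted p = 0.318) in CD11b- B cells, whose libraries overlapped with PMs. On whole reads *Tlr4* was lower than in PMs in both B cell groups by edgeR (-1.55, adjusted p = 0.0234, and -1.0, adjusted p = 0.0415) and by DESeq2 (adjusted p = 0.00353 and 0.00954).

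*Tlr5*, the receptor for flagellin, was at the limit of detection. It had 6 reads over the 3 CD11b+ libraries, 2 over the CD11b- libraries and 3 over the PMs, with at most 0.0294 FPKM in any library. With so few reads no ratio is given, and a difference was not detectable at this depth.

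**Figure D3:**
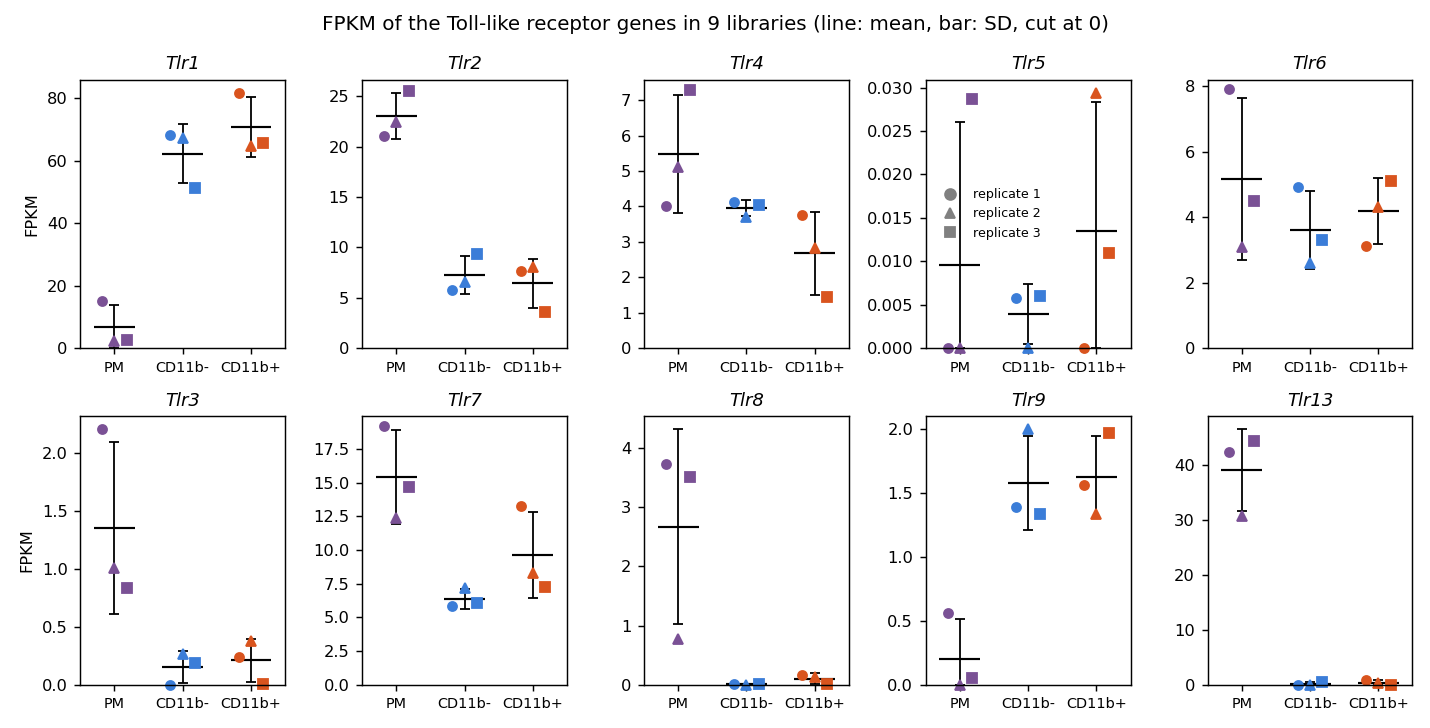
FPKM (y axis, from 0, scaled for each gene) of the 10 TLR genes in PMs, CD11b- and CD11b+ B cells; points are libraries, with the marker giving the replicate number, lines are means and bars are SD, cut at 0. *Tlr1* and *Tlr9* were higher in B cells, *Tlr2*, *Tlr3*, *Tlr8* and *Tlr13* higher in PMs, and the 2 B cell groups overlapped for each gene except *Tlr7*.

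Of the endosomal receptors, *Tlr13*, which detects bacterial ribosomal RNA, had the largest difference on the log2(FPKM + 1) scale between PMs and B cells among the 9 members tested. It had 42.3, 30.7 and 44.4 FPKM in PMs (39.1 ± 7.41), the highest level of any TLR gene there, 0.0557, 0.0466 and 0.464 FPKM in CD11b- B cells (0.189 ± 0.238) and 0.854, 0.240 and 0.0264 FPKM in CD11b+ B cells (0.373 ± 0.430). The mean was 105 times higher in PMs than in CD11b+ B cells and 207 times higher than in CD11b- B cells. The difference was -4.90 (standard error 0.30, adjusted p = 1.39e-05 by limma) and -5.08 (0.25, adjusted p = 5.82e-06). The libraries ranged from 0.0264 to 0.854 FPKM in CD11b+ B cells and from 0.0466 to 0.464 FPKM in CD11b- B cells, and the groups overlapped (0.18, standard error 0.25, adjusted p = 0.80). The reads behind the B cell values were 139 over the CD11b+ libraries and 79 over the CD11b- libraries.

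*Tlr8*, whose human counterpart detects single-stranded RNA, had 3.73, 0.773 and 3.51 FPKM in PMs (2.67 ± 1.65), 0.171, 0.139 and 0.00791 FPKM in CD11b+ B cells (0.106 ± 0.0863) and 0.00836, 0 and 0.00870 FPKM in CD11b- B cells. In reads these were 576 in PMs, 18, 13 and 1 in the CD11b+ libraries, and 1, 0 and 1 in the CD11b- libraries. All PM libraries lay above all B cell libraries, and 2 of the 3 CD11b+ libraries exceeded every CD11b- library. *Tlr8* was lower than in PMs by a difference of -1.61 (standard error 0.41, adjusted p = 0.021 by limma) in CD11b+ B cells and of -1.74 (0.40, adjusted p = 0.0118) in CD11b- B cells. Against the CD11b- B cells *Tlr8* passed the filter through the PMs alone. Per read on genes, *Tlr8* was 429 times higher in PMs than in CD11b- B cells, with a 95% interval from 118 to 3548 that covers counting error only. Between the B cell groups the difference was 0.13 (0.10, adjusted p = 0.726), resting on 32 and 2 reads.

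*Tlr3*, the receptor for double-stranded RNA, had 2.21, 1.01 and 0.837 FPKM in PMs (1.35 ± 0.745), 0.242, 0.382 and 0.0109 FPKM in CD11b+ B cells (0.211 ± 0.187) and 0, 0.270 and 0.186 FPKM in CD11b- B cells (0.152 ± 0.138). The PMs were all above the B cells, and the lowest library of each B cell group had 0 or 2 reads beside up to 52 in the others. The difference from PMs was -0.92 (standard error 0.30, adjusted p = 0.0475 by limma) in CD11b+ B cells and -0.99 (0.27, adjusted p = 0.0246) in CD11b- B cells. Both were past the threshold in limma and DESeq2 but not in edgeR (adjusted p = 0.0552 and 0.0587). Between the B cell groups the difference was 0.07 (0.16, adjusted p = 0.896) and turned to -0.03 without CD11b- replicate 1 or without CD11b+ replicate 2.

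*Tlr7*, the receptor for single-stranded RNA, was the endosomal receptor that all 3 groups shared. It had 13.3, 8.33 and 7.28 FPKM in CD11b+ B cells (9.63 ± 3.21), 5.83, 7.20 and 6.10 FPKM in CD11b- B cells (6.38 ± 0.728) and 19.2, 12.3 and 14.7 FPKM in PMs (15.4 ± 3.5). The lowest CD11b+ library stood just above the highest CD11b- library, with CD11b+ replicate 1 well above the rest and inside the range of the PMs. The CD11b+ mean was 1.51 times the CD11b- mean, a difference of 0.49 (standard error 0.23, adjusted p = 0.676 by limma, exact two-sided permutation p = 0.1, the smallest that 3 libraries against 3 can give). Without CD11b+ replicate 1 it was 0.26. *Tlr7* was lower than in PMs by a difference of -1.14 (0.22, adjusted p = 0.00542) in CD11b- B cells, and in CD11b+ B cells the difference was -0.65 (0.28, adjusted p = 0.117).

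*Tlr9*, the receptor for unmethylated CpG DNA, had 1.57, 1.34 and 1.97 FPKM in CD11b+ B cells (1.63 ± 0.321), 1.40, 2.0 and 1.34 FPKM in CD11b- B cells (1.58 ± 0.368) and 0.559, 0 and 0.0570 FPKM in PMs (0.205 ± 0.307). All B cell libraries lay above all PMs, and the ranges of the B cell groups overlapped. The PM value rested on 39 reads, 35 of them in replicate 1, where *Tlr9* was 34.9% of its mean in the B cell libraries. The part of B cells or their RNA in that value was not tested either. *Tlr9* was higher than in PMs by 1.15 (standard error 0.28, adjusted p = 0.0171 by limma) in CD11b+ B cells and by 1.12 (0.27, adjusted p = 0.0137) in CD11b- B cells. The call rested on the test: edgeR gave differences of 2.63 and 2.57 with adjusted p = 0.182 for both, and DESeq2 adjusted p = 0.0863 and 0.108. Between the B cell groups the difference was 0.03 (0.24, adjusted p = 0.975), with a 95% interval from -0.54 to 0.59.

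Calls against PMs for the low receptors also depended on single libraries. Without any 1 of the 3 CD11b+ libraries, the members lower in CD11b+ B cells were 2, *Tlr2* and *Tlr13*. Without CD11b- replicate 1 or 2, those lower in CD11b- B cells were 3, *Tlr2*, *Tlr7* and *Tlr13*. *Tlr9* was no longer called in CD11b+ B cells against PMs without PM replicate 2 or 3. The shares of all genes called in these fits are not given here. *Tlr1*, *Tlr2* and *Tlr13* kept their direction and their call against PMs in every alternative computed for both B cell groups.

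The order of the receptors, by mean FPKM, was led by *Tlr1* in both B cell groups with a gap to the next gene. In CD11b+ B cells *Tlr7*, *Tlr2*, *Tlr6*, *Tlr4* and *Tlr9* followed, each with a range that overlapped with that of the next, and then *Tlr13*, *Tlr3*, *Tlr8* and *Tlr5* after a gap. In CD11b- B cells *Tlr2* came before *Tlr7*, with overlapping ranges, and *Tlr4* before *Tlr6*, also overlapping, and the ranges were apart between *Tlr7* and *Tlr4*, between *Tlr6* and *Tlr9* and between *Tlr9* and *Tlr13*. The order in PMs was *Tlr13*, *Tlr2*, *Tlr7*, *Tlr1*, *Tlr4*, *Tlr6*, *Tlr8*, *Tlr3*, *Tlr9* and *Tlr5*. There the ranges were apart between *Tlr13* and *Tlr2*, between *Tlr2* and *Tlr7* and between *Tlr3* and *Tlr9*, and overlapped between all other neighbours.

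Myeloid RNA in the B cell libraries was set beside the receptors that PMs express. *Lyz2*, the lysozyme gene of macrophages and neutrophils, was between 0.173 and 0.692% of its mean in PMs in the CD11b+ libraries and between 0.0797 and 0.112% in the CD11b- libraries, and *Csf1r*, the receptor for the macrophage growth factor M-CSF, between 0.715 and 1.88% and between 0.0684 and 0.118%. The other genes of the monocyte and macrophage list did not share 1 proportion. Of its 12 genes, 10 had means between 0.501% (*Lyz2*) and 18.8% (*Cx3cr1*) of PMs in CD11b+ B cells and between 0.0786% (*Ccr2*) and 2.02% (*Cx3cr1*) in CD11b- B cells. *Ly6c2*, a surface antigen of inflammatory monocytes that other leukocytes also carry, was higher in B cells, with means of 33.7 FPKM in CD11b+ B cells, 15.7 FPKM in CD11b- B cells and 0.127 FPKM in PMs. *Cd300e* had 312 reads in the CD11b+ libraries and 5 in the PMs. *Tlr13* was between 0.0674 and 2.18% of its mean in PMs in the CD11b+ libraries and between 0.119 and 1.19% in the CD11b- libraries, and *Tlr8* between 0.296 and 6.40% and between 0 and 0.326%. CD11b+ replicate 3 was the lowest CD11b+ library for *Tlr2*, *Tlr3*, *Tlr4*, *Tlr7*, *Tlr8* and *Tlr13*. Of the monocyte and macrophage list it was the lowest CD11b+ library for *Lyz2*, *Csf1r*, *Adgre1*, *Ccr2* and *Mertk* and the highest for *Ly6c2*, *Fcgr1* and *Cd300e*. The 12 genes of that list summed to 133 to 311 FPKM in the CD11b+ and to 52.5 to 57.7 FPKM in the CD11b- libraries. When the B cell groups were compared, 5 of them passed the filter through the CD11b+ libraries alone, as did 8 of the 14 neutrophil genes. Of these 14 genes 3 were called (*S100a8*, *S100a9* and *Retnlg*, the last below the filter in CD11b- B cells), beside 0.0689% of all genes. *Cd300e* was at 0 in all CD11b- libraries. *Tlr2* was at 15.8 to 40.7% and *Tlr7* at 37.8 to 86.2% of their means in PMs over the B cell libraries. The part of such cells or their RNA in the levels of these receptors was not tested.

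Genes with the pattern most like that of a member were sought among 11227 genes with at least 1 FPKM in a group, by the distance between log2(FPKM + 1) values over the 9 libraries after each gene's mean was subtracted. The nearest to *Tlr1* were *Cxcr5*, the chemokine receptor that guides B cells to follicles (distance 0.98), and *Fgd2* (1.0). *Pid1* (0.63) and *Cryl1* (0.67) were nearest to *Tlr13*, and *Bmpr1a* (0.37) and *Epn2* (0.53) to *Tlr8*. For *Tlr9* they were *Tlk1* (0.22) and *Yipf4* (0.28), for *Tlr7* *Rab1a* (0.54) and *Magt1* (0.60), for *Tlr2* *Nucb1* (0.48) and *Il6st* (0.57), for *Tlr3* *Txnrd2* (0.40) and *Neurl1a* (0.41), for *Tlr4* *Nkiras2* and *Psap* (both 0.44), and for *Tlr6* *Zfp523* (0.43) and *Washc3* (0.45). No member was among the nearest of another, and the closest pair of members was *Tlr3* and *Tlr7* (0.84).

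Outside the 10 members, *Tlr12*, a further endosomal receptor of the mouse, had 2.56, 4.17 and 2.02 FPKM in CD11b+ B cells, 4.55, 3.73 and 9.45 FPKM in CD11b- B cells and 0.0216 to 0.0349 FPKM in PMs. It was higher than in PMs in both B cell groups (1.89, standard error 0.30, adjusted p = 0.00241 by limma, and 2.66, 0.35, adjusted p = 0.00101) but passed the filter in both comparisons through the B cells alone. The B cell groups differed by -0.77 (adjusted p = 0.672), and their libraries overlapped. *Tlr11* had no read in any B cell library.

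The proteins that serve the receptors were read from lists of the pathway. Between the B cell groups 0 of their 65 genes were called, beside 0.0689% of all genes. The median differences were 0.20 over 15 co-receptors, chaperones and processing enzymes, -0.11 over 6 TIR adaptors and -0.06 over 21 kinases, ligases and transcription factors. They were -0.19 over 12 inhibitors and 0.61 over the 11 response genes tested, beside 0.03 over all genes. Of the response genes, 5 (*Il6*, *Il1b*, *Il12b*, *Ccl3* and *Acod1*) passed the filter through the CD11b+ libraries alone. The libraries of 20 of the 65 genes did not overlap, beside 14.9% of all genes. The smallest adjusted p was 0.0726, for *Ccl5*, a chemokine, at 4.97, 5.05 and 4.61 FPKM in CD11b+ and 0.562, 0.149 and 0.910 FPKM in CD11b- B cells. *Cxcl10*, a further chemokine, had means of 1.84 and 0.221 FPKM (adjusted p = 0.552). *Cd14*, which hands LPS to TLR4, had 1.77, 1.70 and 1.61 FPKM in CD11b+ and 0.260, 0.265 and 0.558 FPKM in CD11b- B cells (0.99, standard error 0.21, adjusted p = 0.263 by limma), and *Hsp90b1*, the chaperone gp96 that folds TLRs, had 232 ± 31.6 and 142 ± 16.3 FPKM (0.70, 0.16, adjusted p = 0.311). The 6 genes of the plasma cell list summed to 203 to 590 FPKM in the CD11b+ and to 85.2 to 150 FPKM in the CD11b- libraries, with 5 of the 6 differences positive and 0 called, and the part of plasma cells in the level of *Hsp90b1* was not tested. *Pik3ap1*, the B cell adaptor BCAP, had 52.8 ± 10.9 and 87.9 ± 17.7 FPKM (-0.73, 0.20, adjusted p = 0.453), and *Tirap*, an adaptor of TLR2 and TLR4, means of 7.59 and 9.97 FPKM (-0.35, adjusted p = 0.671). Of the inhibitors, *Tnfaip3*, which encodes A20, had 12.2 ± 2.73 and 17.9 ± 1.33 FPKM (-0.54, 0.19, adjusted p = 0.579), and *Atf3* had means of 1.21 and 0.494 FPKM (0.52, adjusted p = 0.727). *Ikbkg*, which encodes NEMO of the IKK complex, had means of 6.63 and 9.85 FPKM (-0.61, adjusted p = 0.686), and *Traf6*, a ligase below the adaptors, of 7.34 and 11.7 FPKM (-0.58, adjusted p = 0.676).

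Against PMs, 8 of the 15 co-receptor genes were lower in CD11b+ B cells and 3 higher (*Slc15a4*, *Cd180* and *Unc93b1*), beside 8.78% and 21.5% of all genes. In CD11b- B cells 9 were lower and 2 higher (*Slc15a4* and *Unc93b1*), beside 11% and 25.8%. After median-ratio rescaling 1 and 2 were higher, beside 12.6% and 15.9% of all genes, and without PM replicate 1 those higher in CD11b- B cells were 4. *Cd14* had 268, 513 and 493 FPKM in PMs and was lower by a difference of -7.25 (standard error 0.27, adjusted p = 1.31e-06 by limma) in CD11b+ and of -8.24 in CD11b- B cells. *Lbp*, which encodes the LPS-binding protein, had means of 27.4 FPKM in PMs, 0.285 FPKM in CD11b+ and 0.0374 FPKM in CD11b- B cells (-4.48 and -4.77), and against the CD11b- B cells it passed the filter through the PMs alone. *Ly96*, which encodes MD-2, the part of the TLR4 complex that binds LPS, and was chosen after its values were seen, had 87.8 to 109 FPKM in PMs, 12.4 to 19.0 FPKM in CD11b+ and 8.19 to 15.4 FPKM in CD11b- B cells. The proteases *Ctsb* and *Ctsl*, which can cut endosomal TLRs, were lower in both B cell groups (-3.63 and -3.98 in CD11b+, -3.43 and -4.27 in CD11b- B cells). *Unc93b1*, which carries the endosomal TLRs from the endoplasmic reticulum, was higher in B cells, at 421, 480 and 396 FPKM in CD11b+, 479, 523 and 705 FPKM in CD11b- B cells and 208, 221 and 213 FPKM in PMs (1.01, adjusted p = 0.00601, and 1.39, adjusted p = 0.0014). *Slc15a4*, an endolysosomal transporter that TLR7 and TLR9 signalling needs, was also higher in both (1.34 and 1.67), and *Cd180*, a TLR4-like receptor of B cells, in CD11b+ B cells (1.12, adjusted p = 0.0207).

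Downstream of the receptors, *Pik3ap1* was the only adaptor called on FPKM as deposited, of 5 tested in CD11b+ and 6 in CD11b- B cells, and it was higher in both (2.35 and 3.08), beside 21.5% and 25.8% of all genes. After median-ratio rescaling 3 adaptors in CD11b+ and 2 in CD11b- B cells were lower, beside 12% and 15% of all genes. Of 21 kinases, ligases and transcription factors, 7 were higher and 2 lower in CD11b+ B cells than in PMs, beside 21.5% and 8.78% of all genes, and 13 and 2 in CD11b- B cells, beside 25.8% and 11%. These counts moved with the processing and with single libraries. After median-ratio rescaling 4 and 5 were higher, beside 12.6% and 15.9% of all genes. Those higher in CD11b+ B cells were 13 without PM replicate 1, and those higher in CD11b- B cells were 7 without any 1 CD11b- library and 8 without PM replicate 2. Those lower were 1 in CD11b+ B cells without PM replicate 3 or CD11b+ replicate 1 or 2, and 1 in CD11b- B cells without PM replicate 1 or 3 or CD11b- replicate 2 or 3. *Irak2* (2.18), *Traf3* (1.93), *Rel* (1.91), an NF-kB subunit, and *Chuk* (1.59), an IKK kinase, had the largest differences of those higher in CD11b+ B cells, and *Irak2* (2.40), *Rel* (2.16), *Traf3* (1.93) and *Ikbkg* (1.62) of those higher in CD11b- B cells. *Ikbke* (-2.38 and -2.89) and *Irak4*, the kinase that binds MyD88 (-0.75 and -0.69), were lower in both.

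Of the 12 inhibitors, 5 were higher and 2 lower in CD11b+ B cells than in PMs, beside the same shares of all genes, and 7 and 2 in CD11b- B cells. In the latter 4 were higher after median-ratio rescaling, beside 15.9% of all genes, or without CD11b- replicate 2. *Sigirr*, an inhibitor of the receptor family, had between 22.5 and 36 FPKM in the 6 B cell libraries and between 0.163 and 0.315 FPKM in PMs (4.55, standard error 0.27, adjusted p = 1.15e-05 by limma, in CD11b+ and 4.74 in CD11b- B cells). *Tnfaip3* (2.48 and 3.03), *Socs1* (1.93 and 1.81) and *Tnip1* (1.71 and 1.99) were also higher in both, and *Dusp1* (-3.56 and -3.78) and *Atf3* (-3.33 and -3.84) were lower in both. Of the response genes, 13 were tested in CD11b+ and 12 in CD11b- B cells against PMs, of which 4 and 7 passed the filter through 1 group alone. The only one called higher was *Tnf*, in both B cell groups (2.42 and 1.81), beside the same 21.5% and 25.8% of all genes. By edgeR 0 were higher in either group, beside 18.7% and 21.1% of all genes. In CD11b- B cells 0 were higher after median-ratio rescaling, beside 15.9% of all genes, or without CD11b- replicate 1 or 2. In CD11b+ B cells 2 were higher without PM replicate 1 or without CD11b+ replicate 3. Those called lower were 2 in CD11b+ B cells (*Cxcl1* and *Cxcl2*), beside 8.78% of all genes, and 5 in CD11b- B cells (*Cxcl1*, *Cxcl2*, *Ccl3*, *Ccl5* and *Il6*), beside 11%. Of these *Ccl5* (-1.67) alone passed the filter in both groups compared. The others were tested through the PMs alone. *Cxcl1* and *Cxcl2*, chemokines that attract neutrophils, had means of 7.42 and 15.6 FPKM in PMs and of at most 0.0246 FPKM in a B cell group. *Ccl3* had a mean of 4.0 FPKM in PMs and no read in CD11b- B cells, at least 102-fold higher in PMs.

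**Figure D4:**
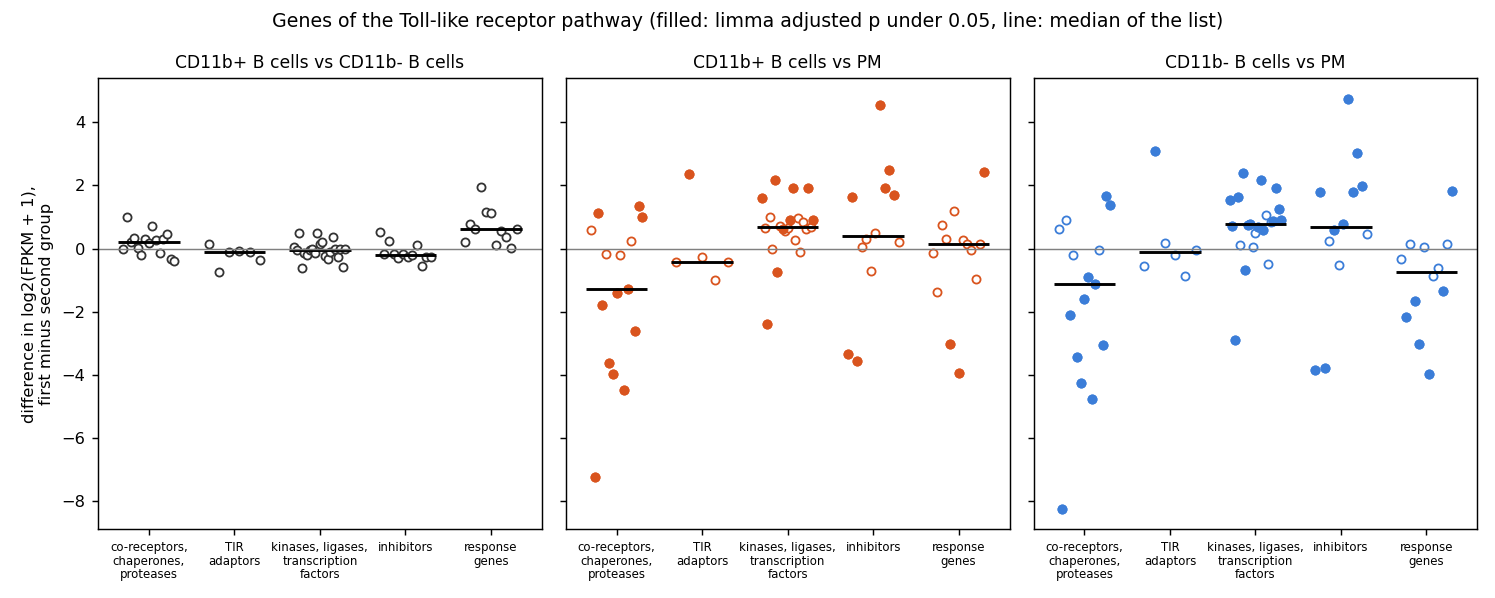
Differences in log2(FPKM + 1) by limma (y axis) of the genes in 5 lists of the TLR pathway (x axis), 1 panel per comparison; points are genes, filled where the adjusted p was under 0.05, and lines are list medians. No point is filled between the B cell groups, and *Cd14* is the lowest point in both comparisons with PMs.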

How the data were processed

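RNA of 9 libraries was prepared by the authors with a SMART-seq kit, which does not mark the strand, and sequenced. Per the labels and their tool lists, reads were trimmed (Trim Galore 0.4.4, Trimmomatic 0.36, cutadapt 1.16), aligned with STAR 2.7.2b and counted per gene with featureCounts 1.6.1. The table used here holds FPKM that the authors made from these counts by exon length and library total. A further deposited table, of genes chosen by the authors at a p-value of 0.05, holds counts divided by DESeq2 1.20.0 size factors (a normalized signal) and was used only as a check of the reads. The deposited columns of fold changes and p-values were not used. Whole read counts were recovered from FPKM and exon length, and 100% of values came out within 0.05 of a whole read in every library (18014658 to 35251215 reads on genes). Intervals from reads cover counting error only.

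Groups were taken from the sample labels. Each pair of groups was tested with limma 3.58.1 (R 4.3.3), with a trend, on log2(FPKM + 1) for genes with a mean of at least 0.05 FPKM over the 6 libraries, with Benjamini-Hochberg adjustment over all genes tested and a threshold of 0.05. An exact two-sided permutation test of 3 libraries against 3 cannot go below 0.1. Alternatives were a pseudocount of 0.1, no filter or a minimum of 1 FPKM, all 9 libraries in 1 fit, a replicate block by the numbers in the titles (and one added later by those in the descriptions), no trend, median-ratio or quantile scaling, edgeR 4.0.16 and DESeq2 1.42.0 on the whole reads, and leaving out each library. The scripts were tested on simulated data. The members and all lists were chosen with earlier results of these data known. All members are named. From each pathway list genes were named if past the threshold, up to 4 with the largest change per direction, or as the 2 with the largest change between the B cell groups, and the 2 nearest genes were named for each member with at least 1 FPKM in a group. Sequences were read from GRCm38 with GENCODE M21 and from RefSeq (GRCm38.p6). Positions in the deposited table mostly differ from GENCODE M21 and were not used. Items withheld for evaluation are not reported here.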

Additional observations from a re-analysis of the deposited data

How the results depend on the processing

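Between CD11b+ and CD11b- B cells, 0 members were called under every alternative. For that comparison 1 member was at the smallest permutation p, and 2 were after median-ratio scaling, a setting chosen after seeing the data. Against PMs, the members higher in CD11b+ B cells were 1 instead of 2 with no filter on FPKM, with a minimum of 1 FPKM, with quantile normalization, with edgeR with or without a filter and with DESeq2 (beside 8.73 to 36.5% of all genes under these settings), and 1 to 2 when 1 library was left out. Those lower were 2 instead of 4 with no filter (beside 4.24%), and 2 to 3 when 1 library was left out. The members higher in CD11b- B cells, again against PMs, were 1 instead of 2 with no filter, with a minimum of 1 FPKM, with edgeR with or without a filter and with DESeq2 (beside 11.7 to 40% of all genes), and those lower were 3 to 5 instead of 5 when 1 library was left out. The shares of all genes called when 1 library was left out are not given here. The causes of these changes in the counts were not tested, except that a minimum of 1 FPKM leaves out *Tlr9*.

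Of 458 alternative values of the members' fold changes, 405 kept direction and side of the threshold, 31 lost and 12 gained significance, and 10 changed sign, in 6 results, none of which was past the threshold. Between the B cell groups, the difference of *Tlr9* was -0.0677 with quantile normalization and between -0.0638 and 0.14 when 1 library was left out. That of *Tlr2* was between -0.36 and 0.12, that of *Tlr3* between -0.0326 and 0.19, and that of *Tlr13* between -0.0575 and 0.37. For CD11b+ B cells against PMs, *Tlr6* was between -0.45 and 0.11. The cause of these reversals was not tested.

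Whether the replicate numbers of the sample titles (1 to 3) pair the libraries is not stated, and correlations of the deviations from the group means could not settle it. Between B cell libraries of the same number they were 0.28, -0.02 and 0.21, and between those of different numbers -0.30 to 0.14. With PMs those of the same number were between -0.14 and 0.0963. With a replicate block, 0 members were called between the B cell groups, 2 higher and 3 lower in CD11b+ B cells against PMs (*Tlr3* was no longer called), and 2 higher and 5 lower in CD11b- B cells against PMs. The shares of all genes called with this block are not given here. The sample descriptions number the libraries otherwise and share 2 numbers between the B cell groups, for the libraries titled 1 and 3, which are too few pairs to show a pairing. With a replicate block by these numbers, chosen after seeing the data, 0 members were called between the B cell groups and the difference of *Tlr6* was -0.00989. Against PMs only 1 number is shared, so no such fit was made. Depth limits the low members: *Tlr5* had 11 reads in all, and *Tlr8* had 2 reads in CD11b- B cells.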
